A study of Mus musculus with 41 samples.

Results

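Ribosome footprints of whole mouse embryos at embryonic day (E) 8.5 were compared between 3 Hbs1l-/- and 3 wild-type libraries, which are 6 of the 41 samples of the series and were chosen by their labels as the embryo footprint libraries. Both genotypes were on the C57BL/6NJ strain, were collected from timed matings and were sequenced in batch 1, and 5 embryos that had not been sexed were pooled for each library. The Hbs1l-/- allele lacks exon 5 of Hbs1l in every cell from the germline on, so that no tissue of the embryo, yolk sac or placenta of these conceptuses carries a working copy, whereas the shorter isoform II of Hbs1l is not targeted by this deletion. The methods of the study say that mice with the Hbs1l allele were also bred to carry the n-Tr20 mutation of C57BL/6J, which lowers an arginine tRNA; the labels do not give the n-Tr20 genotype of these embryos. The other group is labelled wild type, and no agent is named for either group. The labels name separate pools but neither litters nor dams, and the p values measure the spread between these pools.

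Hbs1l and its partner Pelo release ribosomes stalled near the end of an mRNA that was cut short or lacks a stop codon, and a footprint is the stretch of mRNA that a ribosome shields from nuclease, so that the number of footprints on a coding sequence reflects both how much of the mRNA is present and how many ribosomes translate it. At this age a normal mouse embryo has a beating heart tube, closing neural folds, the first somites and a gut that is beginning to fold. Around it lie the yolk sac, whose visceral endoderm feeds the embryo and whose blood islands release the first, primitive red cells, and the trophoblast, whose giant cells secrete hormones of the prolactin family at the border to the maternal decidua. The study reports that Hbs1l-/- embryos did not develop past this age. The labels give the embryonic day but no finer stage. A difference in stage between the groups thus cannot be told apart from other effects of genotype, and its part in the results was not tested.

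Each library held between 2634480 and 7298812 footprints, on 13952 to 15194 of the 22438 genes in the files, of which 22397 (99.82%) have a symbol. Values are CPM, footprint counts relative to the size of the library after scaling with edgeR's TMM factors, and are given for pools 1, 2 and 3 in that order, the Hbs1l-/- pools before the wild-type pools. Fold changes are Hbs1l-/- over wild type on the log2 scale with a standard error (SE), and each edgeR adjusted p was obtained by the quasi-likelihood test and adjusted by Benjamini and Hochberg's procedure over all 11414 genes tested. Hbs1l (chr10:21295979-21368898 of GRCm38) was at 2.98, 2.77 and 9.07 CPM in the mutant pools and at 60.1, 52.5 and 50.7 CPM in the wild-type pools. The groups lay far apart, with the mutant pool 3 the highest of its group, and the log2 fold change was -3.60 (SE 0.35, edgeR adjusted p = 9.82e-05). Pelo, the binding partner of HBS1L, was at 60.2, 51.6 and 32.7 CPM against 71.1, 54.3 and 59.9 CPM, which overlap (edgeR adjusted p = 0.411).

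Of the 11414 genes tested, 214 (1.87%) passed an adjusted p of 0.05, 105 (0.92%) of them higher and 109 (0.955%) lower in Hbs1l-/- embryos. The groups did not overlap in 23.8% of all genes tested, with the mutant pools higher in 11.4% and lower in 12.4%, and the median log2 fold change of all genes was 0.01. In all 214 called genes the groups did not overlap, so that a lack of overlap adds no support to a call. At an unadjusted p below 0.05 were 18.6% of all genes, DESeq2 called 3.78% and limma voom with quality weights 13%. These shares are the background for every count of members of a list by the same criterion. The mutant pools differed among themselves. On the first principal component, which held 52.9% of the variance, the wild-type pools lay between -28.3 and -25.6, and the mutant pools 1, 2 and 3 at -3.2, 33.7 and 50.1. Mutant pool 1 correlated at 0.963 to 0.968 with the wild-type pools (log2 CPM across genes of 2 libraries, a description), no less than with the other mutant pools (0.96 and 0.943), and in 83 of the 109 genes that fell it was the mutant pool nearest to wild type. Of the 105 genes that rose, mutant pool 2 was nearest in 53 and mutant pool 1 in 44. Without mutant pool 1, 2309 of 11374 genes (20.3%) passed, 1098 higher and 1211 lower, among them 213 of the 214. Leaving out mutant pool 2 or 3 left 118 and 107 calls (1.03% and 0.901% of all genes). Leaving out wild-type pool 1, 2 or 3 left 45, 28 and 46 (0.377%, 0.247% and 0.385%). The share called in each fit is the background for every count of list members in that fit. Of 97 called genes followed singly, 21 passed in each of these 6 fits: Hbs1l, Hbb-y, Slc4a1, Hba-a1, Prl7a1, Prl3d1, Prl2c3, Prl2c2, Prl5a1, Plet1, Procr, Psg22, Psg29, Dnase1l3, Adm, Slc7a3, Mybpc3, mt-Co2, mt-Co3, Snrpg and Gm11361. Of these, Prl2c2, Prl2c3, Prl5a1, Prl3d1, Psg22, Psg29 and Dnase1l3 had at most 16 counts in any wild-type library and were tested mainly because of their counts in the mutant pools, so that their passing adds no support. Snrpg and Gm11361 had at most 8 counts in mutant pools 2 and 3. They were tested mainly because of their wild-type counts, so that their passing adds none either. Another 28 passed in 3 to 5 of the 6 fits, and 48 in 1 or 2, which include the fit without mutant pool 1 for all but Gc (adjusted p = 0.0654, with a smaller log2 fold change). Besides genes for which this is said where they are described, the calls of Actc1, Aldoart2, Ankrd1, Blvrb, Cdh1, Ceacam9, Cpm, Des, Dnaja1, Dpp4, Eif2s3x, Eif3j1, Emb, Epas1, Flt1, Ftl1, Gc, Gjb5, Gm7324, Hba-a2, Hmmr, Hspa8, Htra1, Id3, Itgb3, Myl7, Myl9, Nes, Nppa, Nr2f1, Pgam1, Pgk1, Prl2a1, Ptn, Rpl10a, Rps16, Slc25a37, Stab1, Tmsb4x and mt-Nd3 were lost without any one wild-type pool. The calls of Fau, Rpl24, Rpl38, Smim1, Spn, Tnni3, Tnnt2 and mt-Atp6 were lost without 1 or 2 of the wild-type pools.

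The libraries also differed in what they contained beside the genotype. Of 58 genes taken as defining markers of the lineages of the conceptus, 50 had footprints in every library. The other 8 were Tpbpa, Gcm1 and Prl3b1 of the placenta, Dppa3 and Nanos3 of germ cells, Pf4 of megakaryocytes, C1qa of macrophages and Tcf15 of somites. Summed over 8 Y-linked genes, the mutant pools held 207, 191 and 220 CPM and the wild-type pools 23.3, 37 and 122 CPM, so that every mutant pool was above every wild-type pool. Uty and Ddx3y, both on the Y chromosome, rose by 1.87 (SE 0.37, edgeR adjusted p = 0.0248) and 2.06 (SE 0.43, edgeR adjusted p = 0.028) on the log2 scale. Their log2 fold changes were 2.62 and 3.14 without wild-type pool 3. The call of Uty was lost without wild-type pool 1 (0.128), wild-type pool 2 (0.173) or mutant pool 3 (0.056), and that of Ddx3y without wild-type pool 1 (0.128), wild-type pool 2 (0.191) or mutant pool 2 (0.0951). On the X chromosome, 12 of 409 tested genes (2.93%) rose and 6 (1.47%) fell. The part of the sex makeup of the pools in other results was not tested.

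**Figure D1:**
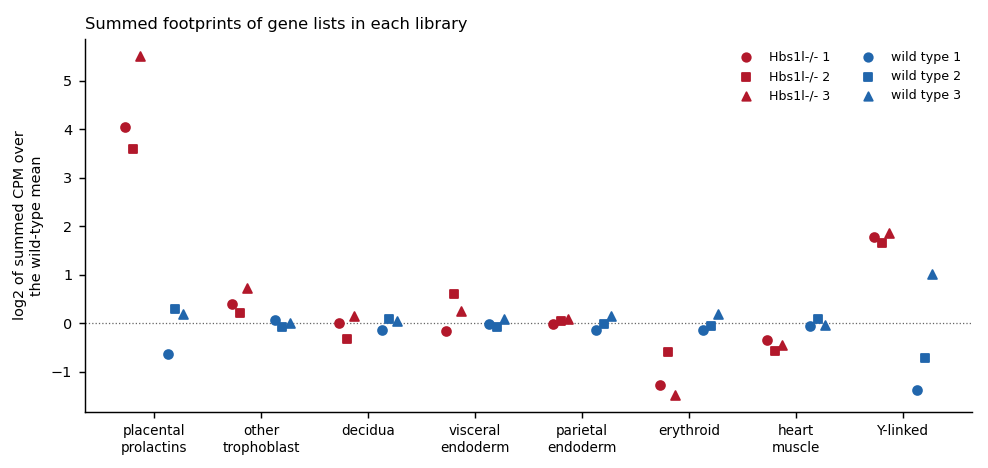
Footprints summed over the genes of 8 lists in each of the 6 libraries, as log2 of the summed CPM over the mean of the wild-type pools; circles, squares and triangles are pools 1, 2 and 3 of Hbs1l-/- embryos (red) and wild-type embryos (blue). The prolactin sums of the mutant pools, 523, 378 and 1430 CPM, lie far above those of wild type, the erythroid sums lie below, and the sums for decidua and parietal endoderm overlap.

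Most red cell genes were lower in Hbs1l-/- embryos. Of 70 erythroid genes in the files 61 were tested, and 10 fell and 0 rose, against 0.955% of all genes that fell. The mutant pools were below every wild-type pool for 36 of the 61 (12.4% of all genes), and the median log2 fold change was -0.68. When mutant pool 1 was left out, 20 fell and 3 rose (20.3% of all genes passed). Leaving out any other single pool left between 3 and 13 lower genes. In whole embryos, fewer cells of a type and less RNA or translation per cell cannot be told apart. The globins carried most of the difference. Their sum was 4440, 8690 and 3160 CPM in the mutant pools and 13100, 13900 and 17100 CPM in wild type, and 4 of the 7 tested globins fell, with a median log2 fold change of -1.49.

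Primitive red cells make embryonic globins: Hba-x, the zeta chain, pairs with the beta-like chains Hbb-y and Hbb-bh1. Hbb-y (chr7:103851749-103853216) was at 149, 271 and 211 CPM in Hbs1l-/- embryos and at 1780, 1690 and 2590 CPM in wild type. No mutant pool came near the lowest wild-type pool, and Hbb-y fell by 3.27 on the log2 scale (SE 0.23, edgeR adjusted p = 5.81e-06). Hba-x (chr11:32276400-32278116) was at 1850, 3690 and 1250 CPM against 5420, 6400 and 7260 CPM. The groups did not overlap, mutant pool 2 was nearest to wild type, and Hba-x fell by 1.49 (SE 0.30, edgeR adjusted p = 0.0248). This call was lost without any one wild-type pool (adjusted p = 0.0869, 0.128 and 0.17). Hbb-bh1, the other embryonic beta-like chain, was at 2390, 4650 and 1670 CPM against 5760, 5680 and 7080 CPM, a log2 fold change of -1.09 that did not pass (edgeR adjusted p = 0.0655). The globins thus fell unequally, with Hbb-y lowered most of the 3 embryonic chains in each mutant pool, and the difference between the chains was not tested. The alpha globins Hba-a1 and Hba-a2 fell, with log2 fold changes of -1.98 and -1.86 (edgeR adjusted p = 0.00237 and 0.0215), but 96.81% and 95.09% of their coding 20-mers occur in another gene, so reads may have been split between the copies. Hbb-bs, an adult beta globin that would come with maternal blood, was at 2.9 to 5.54 CPM in mutant and 4.61 to 11.2 CPM in wild-type pools, which overlap.

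To show the sequence next to the globin that fell most, the 250 bases before the RefSeq start of Hbb-y (minus strand, chr7:103853208-103853457 of GRCm38.p6) are given 5′ to 3′ on the strand of the gene. Capitals mark CACCC, the core letters bound by KLF factors such as KLF1, and GATAA, the core letters bound by GATA factors such as GATA1, on either strand (GGGTG and TTATC on the other strand).
Hbb-y: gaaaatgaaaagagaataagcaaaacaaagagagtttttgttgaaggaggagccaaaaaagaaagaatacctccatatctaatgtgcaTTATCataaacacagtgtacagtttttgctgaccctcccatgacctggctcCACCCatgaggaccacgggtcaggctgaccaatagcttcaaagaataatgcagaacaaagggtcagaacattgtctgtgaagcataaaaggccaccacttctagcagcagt
The window holds both motifs, which do not overlap. CACCC begins 111 bases and the reverse of GATAA 162 bases before the start. Such short motifs are common: CACCC stood in 52% and GATAA in 22.6% of the 32851 RefSeq promoters of this length. Of the 10 erythroid genes that fell 7 were in the promoter table, all 7 with CACCC and 4 (the globins Hbb-y, Hba-x, Hba-a1 and Hba-a2) with GATAA. The factors themselves were translated as follows. Klf1, which activates beta globin genes, was at 16, 14.9 and 7.26 CPM against 26.9, 26.9 and 32.6 CPM, lower in every mutant pool at a log2 fold change of -1.13 that did not pass (edgeR adjusted p = 0.0555). Gata1, the master factor of red cells, was at 24.2, 31.7 and 17.4 CPM against 37.5, 33.7 and 25.2 CPM, and these overlap (edgeR adjusted p = 0.415). Of 12 erythroid transcription factors and receptors none passed, 10 were lower and the median was -0.77.

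Among membrane and enzyme genes of red cells, 3 of 23 fell (median -0.73), where 0.955% of all genes fell. Slc4a1, the band 3 anion exchanger that anchors the red cell skeleton, was at 13.5, 22.7 and 21.0 CPM in Hbs1l-/- pools and 71.5, 103 and 102 CPM in wild-type pools. All mutant pools were well below the lowest wild-type pool, and Slc4a1 fell by 2.30 (SE 0.23, edgeR adjusted p = 0.000116). Smim1, which carries the Vel blood group, and Blvrb, a biliverdin reductase, fell, with log2 fold changes of -1.20 and -1.07. Haem synthesis and iron genes gave smaller differences, with 3 of 19 that fell and a median of -0.35. Slc25a37, the mitoferrin that brings iron into mitochondria, was at 14.5, 13.3 and 12.7 CPM against 27.3, 30.4 and 28 CPM and fell with a log2 fold change of -1.07, and the ferritin light chain Ftl1, 97.55% of whose coding sequence is shared with another gene, with one of -0.89. The sums of the visceral endoderm, the yolk sac tissue next to the blood islands, overlapped between the groups (28800, 48800 and 38100 CPM against 31500, 30400 and 34300 CPM). Among 16 tested genes of early white cells and platelets, the integrin Itgb3 rose by 1.64 (edgeR adjusted p = 0.0325), and the actin-binding Tmsb4x fell by 0.69 (edgeR adjusted p = 0.0393). Of these genes 3 rose and 3 fell without mutant pool 1, where 20.3% of all genes passed.

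**Figure D2:**
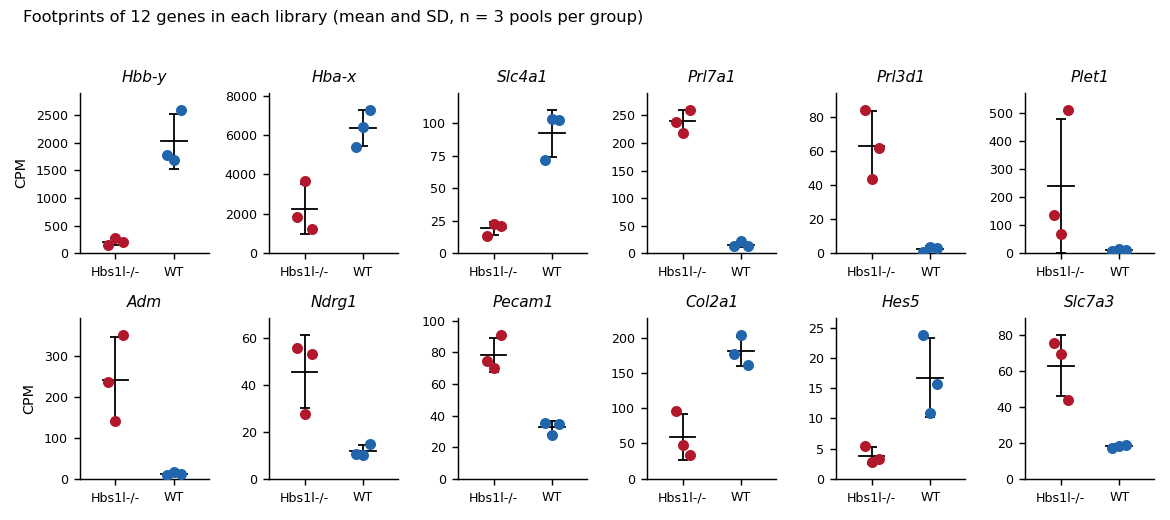
CPM of 12 genes in each library; red points are Hbs1l-/- pools and blue points wild-type (WT) pools, and bars show the mean and SD of 3 pools. The 12 were taken from the 214 called genes, in all of which the groups do not overlap (23.8% of all genes tested). Hbb-y, Hba-x, Slc4a1, Col2a1 and Hes5 are lower in Hbs1l-/- pools and the other 7 are higher, with Plet1 at 136, 68.5 and 511 CPM.

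Placental hormones showed the opposite direction. The files hold 24 genes of the placental prolactin family, of which 10 passed the filter on low counts, and all 10 rose. DESeq2 called 8 of them, and 6 passed in each fit without 1 wild-type pool. Since most of them had next to no footprints in wild type and entered the test only through the mutant pools, this count and their median log2 fold change (4.57) describe the members that were tested. Prl7a1 (chr13:27633366-27642493), a hormone of trophoblast giant cells, was at 239, 219 and 260 CPM in Hbs1l-/- pools and 12.3, 21.3 and 13.5 CPM in wild-type pools. The 3 mutant pools lay close together and far above wild type, and Prl7a1 rose by 3.90 (SE 0.21, edgeR adjusted p = 2.8e-07), the smallest p of all genes. Prl3d1 (chr13:27094190-27100258), placental lactogen I and the defining hormone of giant cells, was at 84.2, 43.6 and 61.7 CPM against 0.79, 3.55 and 3.19 CPM. Again no pools overlapped, and Prl3d1 rose by 4.57 (SE 0.37, edgeR adjusted p = 1.69e-05), with 83.46% of its coding sequence shared with its neighbours. Prl2c3, of the proliferins that promote vessel growth, was at 46.1, 29.2 and 65.0 CPM against 1.19, 2.28 and 2.13 CPM (log2 fold change 4.57, edgeR adjusted p = 1.86e-05, 92.34% shared). Other members were far higher in mutant pool 3 than in the other mutant pools. Prl4a1 was at 27.9, 26.9 and 433 CPM against 1.77 to 2.37 CPM, Prl2a1 at 20.8, 4.78 and 216 CPM against 0.395 to 0.709 CPM, and Prl5a1 at 21.1, 14.6 and 90 CPM against 0.709 to 1.52 CPM. Without mutant pool 3 the log2 fold change of Prl2a1 went from 7.10 to 4.54, that of Prl4a1 from 6.19 to 3.65 and that of Prl5a1 from 5.21 to 4.04, and the call of Prl4a1 was lost without any one wild-type pool (adjusted p = 0.0988, 0.128 and 0.143).

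The other 14 prolactins had too few footprints for the test, with 73, 34 and 519 counts in all in the mutant pools and 2, 10 and 11 in wild type. Of these, 10 had more footprints relative to library size in the pooled mutant libraries, and 3 had no count in any library. In 5 every mutant pool held more raw counts than any wild-type pool. Raw counts are not scaled to library size, and mutant pools 1 and 2 were the largest libraries. The same share among all untested genes was not counted, so that these 5 are a description only. Prl3d3 had 22, 2 and 6 counts against 0 in wild type. It was at least 6.74-fold higher when set against 3 counts over the wild-type group, most of it through mutant pool 1. Prl7c1 had 5, 0 and 71 counts against 0, so that its value (at least 17.1-fold) came nearly all from mutant pool 3. Prl6a1 had 14, 1 and 235 counts against 2, also mostly mutant pool 3, a ratio of 84.3 with an exact counting interval of 23.1 to 700 (95%, counting error only). Prl3b1, placental lactogen II, which giant cells make later in gestation, had no count in any library.

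Trophoblast genes outside the prolactin family were also mostly higher. Of 81 such genes in the files, 43 were tested, 11 rose and 0 fell, 38 were higher in mutant pools and the median was 0.70, while 0.92% of all genes rose. The other 38 were not tested, 23 of them without a count in any library. Among the 11, Psg22, Psg29, Ceacam9, Cts7 and Rhox9 had at most 16 counts in any wild-type library and entered the test mainly through the mutant pools, so that the count and the median describe the tested members. Without mutant pool 1, 26 rose and 1 fell (20.3% of all genes passed). Leaving out any other single pool left between 3 and 14 that rose. Procr (chr2:155751117-155755471), the protein C receptor, which giant cells display on their surface, was at 64.4, 33.7 and 63.1 CPM against 6.72, 6.09 and 7.79 CPM. The wild-type pools were nearly equal and all mutant pools above them, and Procr rose by 2.97 (SE 0.29, edgeR adjusted p = 0.000101). Psg22, a pregnancy-specific glycoprotein of giant cells, was at 33.3, 22.4 and 59.5 CPM against 0.79, 4.06 and 3.9 CPM (log2 fold change 3.62, edgeR adjusted p = 0.00126), and its relative Psg29, at 30.2, 18.9 and 89.3 CPM against 1.06 to 3.8 CPM, rose by 4.34 (edgeR adjusted p = 0.00271). Without mutant pool 3 the log2 fold change of Psg29 was 3.47, and without wild-type pool 2 it was 5.29. Plet1, which marks progenitors of the ectoplacental cone, was at 136, 68.5 and 511 CPM against 9.09, 13.7 and 11.3 CPM (log2 fold change 4.35, edgeR adjusted p = 0.00237, and 3.14 on the log2 scale without mutant pool 3). The connexin Gjb5 of trophoblast gap junctions rose by 2.17. Plac1, a trophoblast membrane protein, was at 117, 77.5 and 429 CPM against 49.8, 27.4 and 42.9 CPM (log2 fold change 2.38, edgeR adjusted p = 0.0277). Its log2 fold change was 1.30 without mutant pool 3, and its call was lost without any one wild-type pool (0.124, 0.184 and 0.181). Plac8, Rhox9 and the placental cathepsin Cts7 rose too. Cts7 was at 14.5, 11.1 and 76.6 CPM against 1.78 to 4.25 CPM, and its log2 fold change of 3.52 was 2.16 without mutant pool 3. Plac8 was at 110, 62.4 and 239 CPM against 41.6 to 52.1 CPM, and its log2 fold change of 1.51 was 0.86 without that pool. Rhox9 was at 18.6, 5.79 and 35.9 CPM against 1.98 to 4.61 CPM (log2 fold change 2.64, and 1.99 without mutant pool 3). All 3 calls were lost without any one wild-type pool. Ceacam9 was at 26.5, 6.04 and 519 CPM against 2.03 to 5.53 CPM, which is mostly mutant pool 3: its log2 fold change of 5.63 was 2.18 without that pool, and the call was lost (adjusted p = 0.0799).

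Markers of the inner placental layers had few counts in wild type and differed between the mutant pools. Tpbpa, the marker of the spongiotrophoblast, had 21, 2 and 234 counts in mutant pools and 0, 1 and 0 in wild type, a ratio of 173 (95% exact counting interval 30.8 to 6870) that rested mostly on mutant pool 3. Gcm1, which starts the labyrinth, had 20, 1 and 2 counts against 0, at least 5.17-fold higher against 3 counts, most of it through mutant pool 1. Cts8, another placental cathepsin, had 16, 12 and 130 counts against 0 and was at least 35.5-fold higher, most of it through mutant pool 3. Among the 10 largest increases were also Dnase1l3, a nuclease that digests DNA of dying cells, at 57, 34 and 36 counts against 0, 0 and 2 (a ratio of 42.8, exact counting interval 11.6 to 357), and Spn, the leukocyte sialophorin CD43, at 9.36, 5.54 and 20.3 CPM against 0 to 1.06 CPM. Both were low in every library and were tested mainly because of their counts in the mutant pools.

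In the other tissues around the embryo, counts are read against 0.92% of all genes that rose and 0.955% that fell. Of 27 tested genes of decidua and maternal tissue, Htra1, a secreted protease, rose from 13, 17 and 11.7 CPM to 26.9, 28.2 and 49.0 CPM (log2 fold change 1.28, edgeR adjusted p = 0.0349), and 3 fell, namely Hba-a1, Hba-a2 and the muscle filament Des. Without mutant pool 1, where 20.3% of all genes passed, 2 rose and 4 fell. None rose and 1 or 2 fell when any other single pool was left out. The summed level of this list was 1040, 826 and 1150 CPM in mutant and 942, 1090 and 1060 CPM in wild-type pools. Its defining markers overlapped: Prl8a2, the decidual prolactin, was at 162, 69 and 310 CPM against 44.3, 122 and 71.9 CPM, and Dcn and Cryab overlapped as well. In the visceral endoderm 2 of 68 genes rose and 0 fell, 56 were higher and the median was 0.27. This count was 19 without mutant pool 1 and 17 with limma voom, and none rose with upper-quartile factors or without any one wild-type pool. Dpp4, a brush border peptidase, was at 151, 357 and 340 CPM against 145, 109 and 142 CPM (log2 fold change 1.10, edgeR adjusted p = 0.0461), and Gc, the vitamin D carrier, at 30.9, 8.06 and 12.3 CPM against 4.56 to 4.74 CPM. The main products of this layer, Apob, Afp, Ttr and Cubn, overlapped between the groups, with mutant pool 2 the highest for Apob (12300 CPM), Afp (3630 CPM) and Cubn (6280 CPM). Among 28 genes of the parietal endoderm and its membrane, of which 7 rose without mutant pool 1, Thbd rose alone, from 9.09, 8.62 and 14.9 CPM to 41.5, 24.4 and 40.6 CPM (log2 fold change 1.72, edgeR adjusted p = 0.00927), a call lost without wild-type pool 1 (0.0749) or 2 (0.106). Thbd encodes thrombomodulin, which works with Procr in the protein C pathway and is also made by giant cells, whereas Plat and Lama1, the other defining markers of the layer, overlapped. How far placental tissue that stayed with the embryos enters the higher trophoblast values was not tested.

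**Figure D3:**
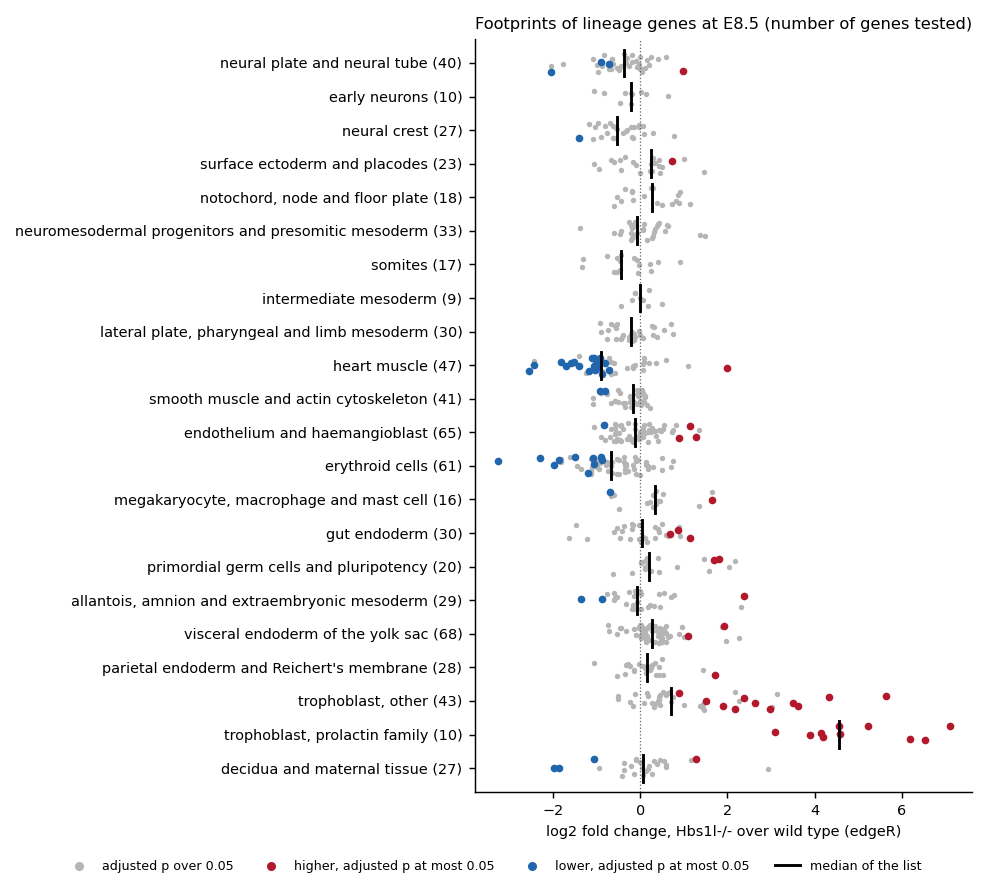
Log2 fold change (Hbs1l-/- over wild type) of every tested gene in lists of lineages, with the number of tested genes in brackets; red and blue points are genes past an adjusted p of 0.05 that were higher or lower, grey points are the others, and black bars are medians. The medians run from -0.89 in heart muscle and -0.68 in erythroid cells to 0.70 in other trophoblast genes and 4.57 in the prolactin family.

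The endothelium gave mixed results. Of 65 tested endothelial and haemangioblast genes 3 rose and 1 fell (median -0.12), where 0.92% of all genes rose and 0.955% fell. In the fit without mutant pool 1, 5 rose and 15 fell, where 1098 of all 11374 genes rose and 1211 fell. When any other single pool was left out, 0 to 3 rose and none fell. Pecam1 (chr11:106654217-106750628), an adhesion molecule at endothelial junctions, was at 74.4, 70.2 and 90.7 CPM in Hbs1l-/- and 35.6, 27.9 and 34.4 CPM in wild-type pools. All mutant pools lay close together and above wild type, and Pecam1 rose by 1.27 (SE 0.18, edgeR adjusted p = 0.00327, and 0.0539 without wild-type pool 2). Flt1, the VEGF receptor that endothelium and trophoblast both make, was at 77.4, 99.7 and 101 CPM against 48.6, 53.8 and 47.5 CPM (log2 fold change 0.88, edgeR adjusted p = 0.0226). Epas1, the HIF-2 alpha factor, was at 45.6, 64.5 and 88.2 CPM against 28.5, 35 and 24.8 CPM (log2 fold change 1.14, edgeR adjusted p = 0.0299). Stab1, a scavenger receptor, fell by 0.84 (edgeR adjusted p = 0.0483). The defining receptor Kdr was at 181 to 234 CPM in mutant and 177 to 195 CPM in wild-type pools, and Cdh5, the junction cadherin, did not pass (edgeR adjusted p = 0.0983).

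Hypoxia targets gave 3 called genes. Of 19 tested genes of this kind 3 rose and 0 fell, with a median of 0.38, where 0.92% of all genes rose. In the wider list of glycolysis and hypoxia genes, 3 rose and 2 fell (median 0.09). In it 10 rose and 5 fell without mutant pool 1, where 20.3% of all genes passed. When any other single pool was left out, 1 to 4 rose and 0 to 2 fell. Adm (chr7:110627661-110629820) encodes adrenomedullin, a peptide that widens vessels and is needed for their growth, and giant cells are one of its known sources. It was at 236, 140 and 349 CPM in Hbs1l-/- pools and 9.09, 16.2 and 11 CPM in wild-type pools. The lowest mutant pool was far above the highest wild-type pool, and Adm rose by 4.28 (SE 0.32, edgeR adjusted p = 8.42e-06). Ndrg1, a stress-responsive gene of differentiating cells, was at 55.7, 27.7 and 53 CPM against 10.7, 10.1 and 14.9 CPM (log2 fold change 1.94, SE 0.29, edgeR adjusted p = 0.0039, and 0.0633 without wild-type pool 2). Egln3, a prolyl hydroxylase that marks HIF factors for degradation, was at 19.3, 13.6 and 24 CPM against 5.93, 8.88 and 7.09 CPM (log2 fold change 1.34, edgeR adjusted p = 0.0453), a call lost without mutant pool 3 (0.116) or any one wild-type pool (0.194, 0.153 and 0.225). In each of these 3 genes mutant pool 2 was the lowest of its group, as it was for the prolactin sums (523, 378 and 1430 CPM), and the part of trophoblast RNA in them was not tested. The glucose transporters Slc2a1 and Slc2a3, with 2800 to 4480 CPM and 5030 to 7720 CPM in mutant pools, did not pass (edgeR adjusted p = 0.127 and 0.0807).

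The 250 bases before the RefSeq start of Adm (plus strand, chr7:110627407-110627656) and Egln3 (minus strand, chr12:54203875-54204124) of GRCm38.p6 show whether the core letters of the hypoxia response element, ACGTG or GCGTG, stand next to genes that rose. Capitals mark them on either strand (CACGT and CACGC on the other strand).
Adm: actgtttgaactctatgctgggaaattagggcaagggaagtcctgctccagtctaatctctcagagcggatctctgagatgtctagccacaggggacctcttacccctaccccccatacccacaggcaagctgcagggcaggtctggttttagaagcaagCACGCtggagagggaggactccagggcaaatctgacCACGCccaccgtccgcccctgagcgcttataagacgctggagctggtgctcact
Egln3: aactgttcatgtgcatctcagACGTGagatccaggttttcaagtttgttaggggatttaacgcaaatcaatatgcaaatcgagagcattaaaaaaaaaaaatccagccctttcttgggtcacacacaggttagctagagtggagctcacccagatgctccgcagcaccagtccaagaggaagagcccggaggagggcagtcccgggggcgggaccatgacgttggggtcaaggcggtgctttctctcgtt
The Adm window holds GCGTG on the reverse strand, beginning 90 and 54 bases before the start, and the Egln3 window holds ACGTG, beginning 229 bases before it. Of all promoters 28.2% held GCGTG and 16.6% ACGTG, and Ndrg1 was not in the table. Of the 7 promoters of erythroid genes that fell, 4 (Blvrb, Ftl1, Hba-a1 and Hba-a2) held GCGTG and 1 (Blvrb) ACGTG.

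Of the lineages, the heart had the largest share of genes that fell when all 6 pools were fitted. Of 47 tested heart muscle genes 20 fell and 1 rose (median -0.89; 0.955% of all genes fell and 0.92% rose), among them Mybpc3, the myosin-binding protein C, at 36, 30 and 26.9 CPM against 91.7, 99.7 and 76.9 CPM (log2 fold change -1.52, edgeR adjusted p = 0.000912). When mutant pool 1 was left out, 28 fell (20.3% of all genes passed), and leaving out any other single pool left between 2 and 12. The erythroid share was larger than that of the heart without mutant pool 2 (13 of 61 against 6 of 47) or wild-type pool 2 (4 of 60 against 2 of 47). The exception in direction was Nppb, the brain natriuretic peptide made by stretched heart muscle, which rose from 8.3, 7.86 and 6.02 CPM to 40, 19.6 and 27.9 CPM (log2 fold change 1.99, SE 0.31, edgeR adjusted p = 0.00548, and 0.0606 and 0.0587 without wild-type pool 2 or 3). Nppa, its atrial relative, fell by 2.55 (edgeR adjusted p = 0.0226), and the sarcomere genes Tnni3, Actc1, Tnnt2 and Myl7 fell, with log2 fold changes of -2.42, -1.06, -1.01 and -0.72. Nppa (9, 4 and 9 counts in mutant pools) and Tnni3 (27, 8 and 6) were tested mainly because of their wild-type counts. Their passing thus adds no support. Of 41 tested smooth muscle and actin genes 2 fell (median -0.16), Myl9 and Ankrd1, which stand in the heart list too. In this list 9 fell without mutant pool 1 and at most 1 when any other single pool was left out.

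Of 40 tested neural plate and neural tube genes 3 fell and 1 rose (0.955% and 0.92% of all genes), 31 were lower and the median was -0.36. Without mutant pool 1, 16 fell (20.3% of all genes passed), and no more than 1 fell when any other single pool was left out. Hes5 (chr4:154960923-154962371), the Notch effector that keeps neural progenitors undifferentiated, was at 5.39, 2.77 and 3.27 CPM against 23.7, 10.9 and 15.6 CPM. It was low in both groups, lower in every mutant pool, and fell by 2.05 (SE 0.39, edgeR adjusted p = 0.0226), a call lost without mutant pool 2 (0.0773) or wild-type pool 1 or 3 (0.145 and 0.117). Hes5 had 38, 11 and 9 counts in the mutant pools and was tested mainly because of its wild-type counts. Nes, the intermediate filament nestin of neural progenitors, was at 67.5, 62.2 and 39.6 CPM against 99.2, 126 and 90.7 CPM (log2 fold change -0.89, edgeR adjusted p = 0.0457). Ptn, the growth factor pleiotrophin, was at 155, 144 and 123 CPM against 206, 243 and 242 CPM (log2 fold change -0.71, edgeR adjusted p = 0.028). The defining factors did not pass: Sox2 was at 82.5, 45.3 and 38.8 CPM against 84.3 to 92.1 CPM (edgeR adjusted p = 0.185), with mutant pool 1 close to wild type, Pax6 was lower in every mutant pool (edgeR adjusted p = 0.0868), and the forebrain factor Otx2 overlapped. Of 10 tested genes of early neurons none passed with edgeR, DESeq2 or limma voom (1 at an unadjusted p below 0.05, 18.6% of all genes; median -0.21), and the others of the 22 in the files had too few footprints.

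Neural crest genes leaned lower, with 1 of 27 past the threshold (0.955% of all genes fell), 23 lower and a median of -0.54. The gene that fell was Nr2f1, the nuclear receptor COUP-TFI, at 8.65, 5.04 and 7.98 CPM against 17.8, 15.7 and 24.8 CPM (log2 fold change -1.41, edgeR adjusted p = 0.0393). With mutant pool 1 left out 9 fell (20.3% of all genes passed), and none did when any other single pool was left out. The crest markers differed among themselves: Foxd3 was lower in every mutant pool, Sox10 and Tfap2a overlapped, and none of them passed. In the surface ectoderm, Cdh1, the epithelial cadherin, rose from 226, 205 and 217 CPM to 296, 447 and 329 CPM (log2 fold change 0.73, edgeR adjusted p = 0.0393), the only one of 23 genes to pass (median 0.25; 0.92% of all genes rose). In that list 6 rose and 3 fell without mutant pool 1, and none passed without mutant pool 3 or any one wild-type pool. The keratins Krt8 and Krt18 were above wild type in every mutant pool without passing (edgeR adjusted p = 0.1 and 0.0962). Cdh1 and these keratins are made by trophoblast and visceral endoderm too.

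No gene passed in 5 of the mesodermal and axial lists: neuromesodermal progenitors and presomitic mesoderm (33 tested, median -0.07), somites (17, median -0.45), lateral plate, pharyngeal and limb mesoderm (30, median -0.20), intermediate mesoderm (9, median 0.00) and notochord, node and floor plate (18, median 0.27). With 1 pool left out the somite median lay between -0.52 and -0.09 and that of the lateral plate list between -0.48 and 0.01. Of their 107 entries 22 were at an unadjusted p below 0.05 (18.6% of all genes), DESeq2 called none, and limma voom with quality weights called 2 higher and 10 lower (13% of all genes). Of the tailbud factors, Tbx6 overlapped, while T, the brachyury factor, and Msgn1 were above wild type in every mutant pool without passing (edgeR adjusted p = 0.269 and 0.326). The somite factor Meox1 was below wild type in every mutant pool (edgeR adjusted p = 0.135), and Tcf15 had at most 7.86 CPM in any library. Shh, the signal of the notochord, overlapped. Without mutant pool 1, 9 presomitic genes fell and 2 rose, and 9 lateral plate genes fell and 1 rose. In that fit 1211 of all 11374 genes fell and 1098 rose. In the allantois, amnion and extraembryonic mesoderm, 2 of 29 genes fell, both collagens described next, and Plac1 rose (0.955% and 0.92% of all genes). The same list had 6 that rose and 8 that fell without mutant pool 1 and none that passed without any one wild-type pool.

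The matrix genes that fell were mostly collagens. All 18 tested collagens were lower in Hbs1l-/- embryos, 13 of them without overlap (12.4% of all genes) and 5 past the threshold (0.955% of all genes), with a median log2 fold change of -0.81. Their sum was 2190, 1700 and 1500 CPM in mutant and 2600, 2810 and 2750 CPM in wild-type pools. Col2a1 (chr15:97975602-98004695), the fibrillar collagen of cartilage and of the sheath of the notochord, was at 95.4, 47.8 and 33.4 CPM against 177, 203 and 161 CPM. Mutant pool 1 was nearest to wild type, no pools overlapped, and Col2a1 fell by 1.58 (SE 0.28, edgeR adjusted p = 0.0136), a call lost without mutant pool 2 (0.0598) or any one wild-type pool (0.0687, 0.106 and 0.0682). Col3a1, the fibrillar collagen of vessels and soft mesenchyme, was at 65.3, 32.7 and 40.6 CPM against 125, 113 and 119 CPM (log2 fold change -1.35, SE 0.22, edgeR adjusted p = 0.00788). Col1a1, Col26a1 and the basement membrane collagen Col4a5 fell too, with log2 fold changes of -0.88, -1.05 and -1.14 (edgeR adjusted p = 0.0323, 0.0434 and 0.0483). The collagen calls held without mutant pool 1, and none did without any one wild-type pool. Those of Col1a1, Col26a1 and Col4a5 were also lost without mutant pool 2 (edgeR adjusted p = 0.119, 0.149 and 0.183) or 3 (0.0852, 0.0929 and 0.115). The whole matrix list of 56 genes had 6 that fell and a median of -0.32. In it 22 fell and 4 rose without mutant pool 1 (20.3% of all genes passed), and none passed without any one wild-type pool. Of 38 other matrix genes, only the microfibril protein Fbn2 fell, by 0.86 (edgeR adjusted p = 0.0401), and Serpinh1 and P4hb overlapped. Of 31 adhesion receptors Itgb3 and Cdh1 rose and none fell. Without mutant pool 1, 4 rose and 2 fell, limma voom called 3 higher and 2 lower, DESeq2 3 higher and 1 lower, and none passed without mutant pool 3 or any one wild-type pool.

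In the gut endoderm 3 of 30 genes rose (median 0.05), where 0.92% of all genes rose. Leaving out mutant pool 1 gave 8 that rose and 2 that fell (20.3% of all genes passed). No more than 1 rose when any other single pool was left out. Trh, the thyrotropin-releasing hormone, was at 52, 55.4 and 55.5 CPM against 34.4, 19.5 and 20.2 CPM (log2 fold change 1.15, edgeR adjusted p = 0.0241), a call lost without mutant pool 2 (0.065) or wild-type pool 2 or 3 (0.168 and 0.19). Cpm, a carboxypeptidase, and Emb, the adhesion protein embigin, rose by 0.68 and 0.86 (edgeR adjusted p = 0.0457 and 0.0491), and Emb was highest in mutant pools 2 and 3 (3100 and 2680 CPM), as were the visceral endoderm sums. The markers Foxa2, Sox17 and Cldn6 did not pass. Among genes of germ cells and pluripotency 2 of 20 rose and 18 were higher (median 0.20), with 8 that rose and 2 that fell without mutant pool 1 and 1 or 2 that rose in the other leave-one-out fits. Pou5f1, the pluripotency factor OCT4, which the embryo shuts off around this stage outside germ cells, was at 57.5, 66.5 and 73.7 CPM against 36.8, 14.5 and 11.3 CPM (log2 fold change 1.68, SE 0.32, edgeR adjusted p = 0.0226), with 27.77% of its coding sequence shared, and its call was lost without mutant pool 2 (0.0607) or wild-type pool 2 or 3 (0.16 and 0.154). The wild-type pool 1 was above the other wild-type pools (log2 fold change 2.34 without it), and the groups did not overlap. The germ cell genes Dppa3 and Nanos3 had 1 count each over the 6 libraries together and were not detectable in a comparison at this depth.

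In the developmental signalling pathways no gene passed in the Wnt list (58 tested) or the Hedgehog list (18), and 1 gene did in the FGF list of 53 (1.89%, against 1.87% of all genes), which was Flt1. Once mutant pool 1 was left out, 16 Wnt genes fell and 3 rose, 7 FGF genes fell and 5 rose, and 4 Hedgehog genes fell. In that fit 20.3% of all genes passed. Of 53 BMP, TGF-beta and Nodal genes 1 fell. Without mutant pool 1, 6 fell and 4 rose, where 1211 of all 11374 genes fell and 1098 rose. The gene that fell was Id3, a direct target of BMP signals and an inhibitor of differentiation. Id3 was at 341, 210 and 233 CPM against 498, 432 and 518 CPM (log2 fold change -0.88, SE 0.18, edgeR adjusted p = 0.0265). Of 28 Notch genes 1 fell, Hes5, with 22 lower and a median of -0.22, and without mutant pool 1, 12 fell. In retinoic acid signalling Crabp2 (chr3:87948666-87953376), which carries retinoic acid to its receptors, was at 170, 143 and 178 CPM against 294, 273 and 284 CPM. The pools of each group lay close together, and Crabp2 fell by 0.79 (SE 0.14, edgeR adjusted p = 0.0131, and 0.123, 0.0903 and 0.122 without wild-type pool 1, 2 or 3), the only one of 19 genes to pass (3 fell without mutant pool 1). Hox genes, which set position along the axis, were lower in 22 of 26 with a median of -0.46, and none passed. The median was -0.70 without mutant pool 1, where 8 fell, and -0.16 without mutant pool 2. Of the 26, 3 lay below wild type in every mutant pool (12.4% of all genes), and the sum of the list was 465, 252 and 324 CPM against 396, 454 and 468 CPM. The insulin-like growth factor list (17 tested) and the imprinted genes (28 tested) held no called gene. Without mutant pool 1, where 20.3% of all genes passed, they had 1 that rose and 5 that fell, and 2 that rose and 9 that fell. In these 5 lists without a call by edgeR, with 147 entries, 30 were at an unadjusted p below 0.05 (18.6% of all genes), DESeq2 called 1 higher and 3 lower, and limma voom 5 higher and 22 lower (13% of all genes).

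**Figure D4:**
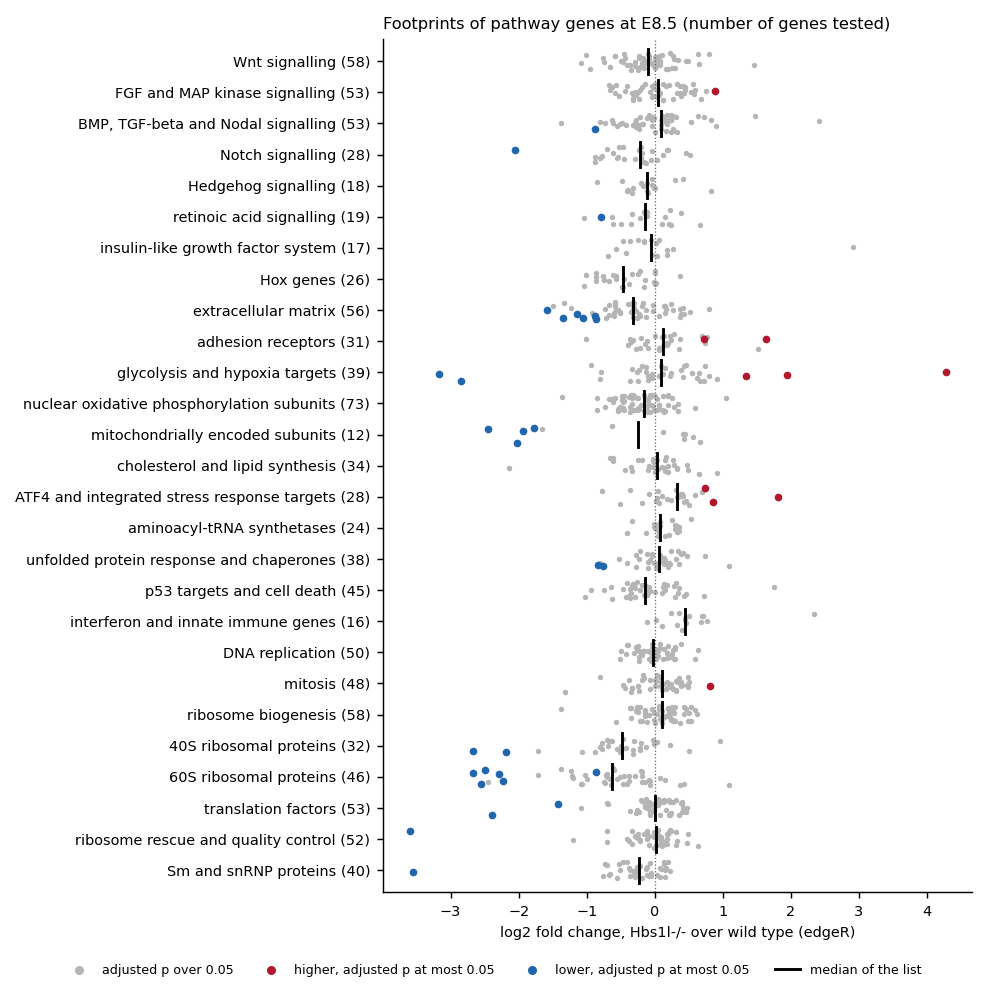
Log2 fold change (Hbs1l-/- over wild type) of every tested gene in lists of pathways and cell functions, with the number of tested genes in brackets; red and blue points passed an adjusted p of 0.05, grey points did not, and black bars are medians. Medians lie between -0.63 for 60S ribosomal proteins and 0.45 for interferon genes, and the farthest single points are Adm at 4.28 and Hbs1l at -3.60.

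Genes for amino acid supply leaned higher. Of 28 tested targets of ATF4, the factor that answers amino acid shortage and other stress, 3 rose and 0 fell (median 0.33), where 0.92% of all genes rose. With mutant pool 1 left out, 8 rose and 2 fell (20.3% of all genes passed), and 1 to 3 rose when any other single pool was left out. All 3 belong to the 18 genes of amino acid synthesis and transport, of which 17 were higher and 10 did not overlap (11.4% of all genes). Slc7a3 (chrX:101079210-101086020), a carrier of arginine and lysine, was at 75.6, 69.7 and 43.9 CPM in Hbs1l-/- pools and 18.1 ± 1.08 CPM (mean ± SD, n = 3) in wild-type pools. The wild-type pools were nearly equal and every mutant pool was above them, and Slc7a3 rose by 1.81 (SE 0.23, edgeR adjusted p = 0.00127). Asns, asparagine synthetase, was at 230, 275 and 254 CPM against 152, 141 and 161 CPM (log2 fold change 0.74, SE 0.14, edgeR adjusted p = 0.0208), a call lost without mutant pool 2 (0.0508) or any one wild-type pool (0.134, 0.153 and 0.144). Slc1a4, a carrier of neutral amino acids, was at 77.1, 68.2 and 50.8 CPM against 33.6, 36.3 and 38.6 CPM (log2 fold change 0.86, edgeR adjusted p = 0.0393), a call lost without mutant pool 2 (0.116) or any one wild-type pool (0.19, 0.191 and 0.191). The 10 tested transcription factors and regulators of the same response held none that passed (median 0.20), and 5 other regulators, Ddit3 among them, had too few footprints. No aminoacyl-tRNA synthetase of 24 passed (19 higher, median 0.08), 5 were at an unadjusted p below 0.05 (18.6% of all genes), DESeq2 called none and limma voom 4 higher (13% of all genes), and 5 rose and 1 fell without mutant pool 1. Slc7a3 is also known from pluripotent cells, and it stands in both lists.

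Among other stress and growth programmes, none passed among 45 p53 and cell death genes (median -0.14), 16 interferon genes (15 higher, median 0.45), 34 genes of sterol and lipid synthesis, 50 genes of DNA replication or 73 nuclear genes of oxidative phosphorylation (53 lower, median -0.16). With mutant pool 1 left out, 3 p53 and cell death genes rose and 7 fell, 3 interferon genes rose, 4 sterol and lipid genes rose and 3 fell, and 5 replication genes rose and 3 fell. In that fit 20.3% of all genes passed, 1098 of 11374 higher and 1211 lower. Of the 218 entries of these 5 lists 52 were at an unadjusted p below 0.05 (18.6% of all genes), DESeq2 called 6 higher and 4 lower, and limma voom 10 higher and 30 lower (3.78% and 13% of all genes). The 73 genes of oxidative phosphorylation held 27 of the 52, 26 of them lower, and 20 of the 30 that limma voom called lower. Of 48 mitotic genes Hmmr, a spindle protein, rose from 92.5, 92.6 and 92.5 CPM to 125, 212 and 149 CPM (log2 fold change 0.81, edgeR adjusted p = 0.0453). Without mutant pool 1, 15 mitotic genes rose and 4 fell, and 24 nuclear genes of oxidative phosphorylation fell and 3 rose, whereas none passed in either list when any other single pool was left out. Of 38 chaperones Hspa8 and Dnaja1 fell, with log2 fold changes of -0.84 and -0.77, and 96.93% and 97.01% of their coding sequence is shared with another gene. Of the chaperones 7 rose and 4 fell without mutant pool 1 (20.3% of all genes passed). None passed when any other single pool was left out. Of 12 tested mitochondrially encoded genes 6 were higher and 6 lower (median -0.25), and 4 rose and 5 fell without mutant pool 1. Of these genes, mt-Co2, mt-Co3, mt-Atp6 and mt-Nd3 fell, with log2 fold changes of -2.45 to -1.78 (0.955% of all genes fell). That of mt-Co2 reached -3.18 with 1 pool left out. For each gene that fell, at least 99.08% of the coding sequence is shared with another gene. The sum over the list was 4830, 5900 and 12100 CPM in mutant and 5510, 6170 and 6390 CPM in wild-type pools. The glycolytic enzymes Pgam1 and Pgk1 fell, with log2 fold changes of -3.17 and -2.84, and all of their coding 20-mers occur in other genes. In mutant pools 2 and 3 Pgam1 had 13 and 4 counts and Pgk1 had 12 and 13. They were tested mainly because of their wild-type counts, so that their passing adds no support. Both differed within the mutant group, with Pgam1 at 34.9, 3.27 and 1.45 CPM and Pgk1 at 38.6, 3.02 and 4.72 CPM, and without mutant pool 1 their log2 fold changes were -5.74 and -5.03.

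Genes with shared sequence made up a large part of the genes that fell. Among 897 tested genes with over 50% of their coding 20-mers in another gene, 44 fell (4.91%) and 7 rose (0.78%), with a median log2 fold change of -0.17. Among 9441 genes with at most 10% shared, 55 fell (0.583%) and 86 rose (0.911%), with a median of 0.02. The counts of such genes depend on how reads that map to several copies were handled, which is not given in the sources used here. Snrpg, a core protein of spliceosomal snRNPs, was at 4.54, 1.51 and 2.9 CPM against 56.1, 37.3 and 20.2 CPM (log2 fold change -3.56, edgeR adjusted p = 0.000777), and all of its coding 20-mers occur elsewhere. Gm11361, a gene model with no name of its own and 92.91% shared, was at 15.3, 1.01 and 2.54 CPM against 131, 71.3 and 56.3 CPM, and the largest decreases also took in Gm7324 and Aldoart2, at 0 to 3.97 CPM in mutant and 12.8 to 20.2 CPM in wild-type pools. Snrpg, Gm11361, Gm7324 and Aldoart2 each had at most 8 counts in mutant pools 2 and 3. They were tested mainly because of their wild-type counts, so that their passing adds no support. In all of these mutant pool 1 held the most footprints of its group, and without it the log2 fold changes of Gm11361, Gm7324 and Aldoart2 were -5.66, -5.66 and -5.06. The part of read mapping in these differences was not tested.

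**Figure D5:**
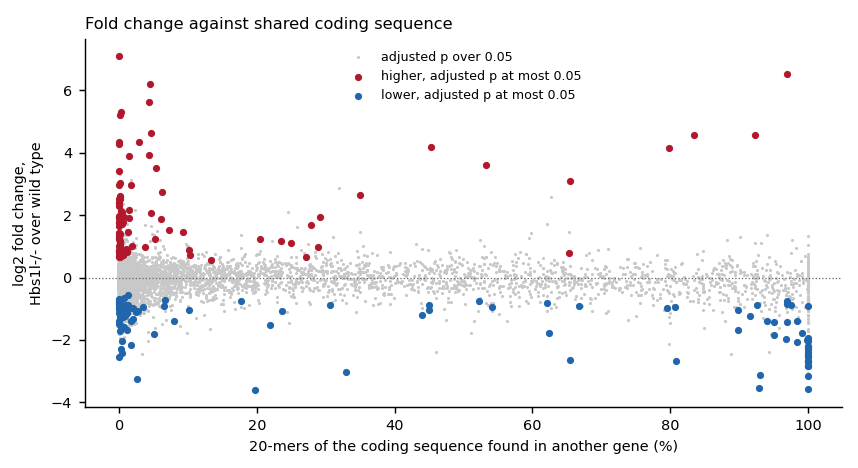
Log2 fold change (Hbs1l-/- over wild type) against the share of a gene's coding 20-mers that also occur in another gene, for every tested gene with a coding sequence; red and blue points passed an adjusted p of 0.05. Of the genes above 50%, 44 fell and 7 rose.

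Ribosomal protein genes leaned lower in these counts. Of 32 tested 40S proteins 2 fell and 28 were lower (median -0.48), and of 46 tested 60S proteins 6 fell and 41 were lower (median -0.63). Of all genes 0.955% fell, and of genes with over 50% of their coding sequence shared, as in nearly all of these, 4.91% fell. Their sums moved less, with 12700, 10300 and 10300 CPM in mutant against 14600, 12600 and 13800 CPM in wild-type pools for 40S and 10500, 9250 and 9410 CPM against 11700, 10500 and 11000 CPM for 60S. The called members included Fau and Rps16 of 40S and Rpl24, Rpl38 and Rpl10a of 60S, and between 92.65% and 100% of the coding sequence of each of them is shared. The log2 fold changes of Rps16, Rpl38 and Rpl10a without mutant pool 1 went from -2.67, -2.67 and -2.50 to -4.55, -4.00 and -4.50. Without mutant pool 1, 15 of the 40S and 29 of the 60S proteins fell (20.3% of all genes passed). No more than 2 and 3 did when any other single pool was left out. Of the best-covered members, Rack1, with 8.37% shared, overlapped between the groups and was at 3580, 3400 and 3030 CPM against 3610, 2960 and 3530 CPM. The initiation factors Eif3j1 and Eif2s3x, both over 95% shared, fell of 53 translation factors. Eif2s3x lies on the X chromosome and was at 16.7, 6.8 and 10.5 CPM against 40.3, 27.9 and 25.9 CPM. The part of the sex makeup of the pools in its change was not tested. Of the translation factors 7 rose and 4 fell without mutant pool 1, where 20.3% of all genes passed. At most 1 fell when any other single pool was left out. In mutant pools 2 and 3 Rpl38 and Eif3j1 had at most 7 counts, and Rps16 had 12 and 4. These 3 genes were tested mainly because of their wild-type counts, so that their passing adds no support. Of 52 genes of ribosome rescue and decay Hbs1l fell and none rose with edgeR. DESeq2 called 3 lower and limma voom 2 higher and 5 lower (3.78% and 13% of all genes). In the fit without mutant pool 1, where 20.3% of all genes passed, 5 rose and 6 fell. Of 58 genes of ribosome biogenesis none passed, with 37 higher and 19 above wild type in every mutant pool (11.4% of all genes). Of the biogenesis genes 16 were at an unadjusted p below 0.05 (18.6% of all genes), DESeq2 called 3 higher, and limma voom 10 higher and 3 lower (3.78% and 13% of all genes). Leaving out mutant pool 1 gave 14 that rose and 7 that fell.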

How the data were processed

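Ribosome footprints of 6 pools of E8.5 embryos were analysed (3 Hbs1l-/-, 3 wild type). Per the labels and the methods of the study, the authors clipped the reads, removed rRNA, tRNA and snoRNA with Bowtie2 2.2.3, aligned the rest to mm10 with HISAT2 2.1.0 and counted footprints over coding sequences with featureCounts. The deposited values are raw counts per gene, with no normalization, and 0 columns of these tables were left unused. Library sizes were 2634480 to 7298812 counts, which limits genes of few footprints, and intervals and floors cover counting error only.

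Following the study, histone symbols were dropped, and genes were kept with edgeR's filterByExpr. Genotype was tested with edgeR 4.0.16 (TMM factors, quasi-likelihood test, Benjamini-Hochberg adjusted p of 0.05 over all genes tested), in R 4.3.3. DESeq2 1.42.0, limma 3.58.1 (voom with quality weights), other factors and filters, the replicate number as a block, each library left out and genes with shared sequence left out were the alternatives. The fits were also run on simulated counts in which all mutant pools were drawn alike. That run does not bear on data in which 1 mutant pool stands apart. Shared sequence is the share of a gene's coding 20-mers found in a transcript of another gene (Gencode M21, GRCm38), and promoters are from RefSeq. Named genes were Hbs1l, Pelo and rescue factors, the 10 largest increases and decreases among called genes with a mean of at least 5 CPM and groups that did not overlap, up to 6 called genes of each direction and the 3 best covered genes of each list, and defining markers. Nppa, Smim1, Blvrb, Slc25a37, Cts7, Rhox9, Plac8, Ddit3 and the untested placental genes Cts8, Prl3d3, Prl6a1 and Prl7c1 were named after their values were seen. The genes and lists were chosen with earlier results of these data known. A few genes counted in the lists are not reported here by name.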

Additional observations from a re-analysis of the deposited data

How the results depend on the processing

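Hbs1l passed in each fit that tested it, with log2 fold changes of -4.22 to -3.29 when 1 library was left out. It was not tested where genes with shared sequence were left out. Against 214 called genes (105 higher, 109 lower), DESeq2 called 432 (225 and 207), edgeR without a filter on low counts 703 (351 and 352) and limma voom with quality weights, which gave mutant pool 1 a weight of 0.293, 1488 (725 and 763). With genes of shared coding sequence left out, an alternative chosen after seeing the data, 146 were called, and the genes that fell went from 109 to 64. With 1 library left out the counts ran from 28 to 2309 (15 to 1098 higher, 13 to 1211 lower), highest without mutant pool 1. The cause of these differences was not tested. RLE or upper-quartile factors, a stricter filter, histone genes kept and scaling without extraembryonic and erythroid genes gave 170 to 215 calls. No named gene that passed changed its direction in any of these fits. Of the named genes with a DESeq2 value, 10 of 95 did not pass there, among them Hba-x (adjusted p = 0.0534), Plac1 (0.0527), Plac8 (0.109), Ddx3y (0.103), Pgam1 (0.0947) and Pgk1 (0.0876).

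The labels do not say whether pools of the same replicate number belong together. Deviations of same-numbered pools from their group means correlated at 0.012, 0.012 and 0.035, and those of the other pairs at -0.027 to 0.014. With 3 pools per group these values cannot decide whether the pools were paired. With the replicate number as a block, 564 genes were called (240 higher, 324 lower).

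The shallowest library held 2634480 footprints, and genes such as Dppa3, Nanos3 and Ddit3 could not be compared at this depth. Every pool came from 1 batch and each group has 3 pools. Sex, stage beyond the embryonic day and the amount of extraembryonic tissue in each pool are not given in the labels.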
